A study of Mus musculus with 6 samples.

Results

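Transcripts of 10 chemokine genes commonly measured in microglia were followed in oligodendrocyte precursor cell (OPC) preparations: Ccl2, Ccl3, Ccl4, Ccl6, Ccl7, Ccl9, Ccl12, Cxcl2, Cxcl10 and Cxcl16. They were chosen by gene symbol from the 18211 genes of the deposited table, each symbol had 1 row, and all 10 were among the 13792 genes abundant enough to test. The 6 libraries came from C57BL/6 mice at postnatal day (P) 7, 3 from wildtype mice and 3 from NG2-CreERTM:DISC1 exon3 fl/+ (DISC1-Δ3) mice, and both groups had received tamoxifen by gavage from P4 through P7. OPCs, the glial precursors of myelinating oligodendrocytes, were collected on an antibody against Pdgfrα and their RNA was extracted without culture. The controls carry no CreERT, so the recombinase and the loss of 1 copy of exon 3 cannot be told apart, and the NG2 promoter that drives it is also known to be active in pericytes. Whether a library is 1 mouse or a pool is not given in the sources used here, so p-values measure only the spread between these libraries.

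Chemokines are small secreted proteins that bind G protein-coupled receptors and direct the migration of leukocytes along a gradient. Microglia, the resident macrophages of the brain, make many of them, in part under NF-κB and interferon signaling, and the act of dissociating brain tissue is itself known to induce several, Ccl3 and Ccl4 among them. Members of the CC class mainly attract monocytes, macrophages and lymphocytes, whereas those of the CXC class include attractants of neutrophils and of activated T cells.

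The libraries held 13716619 to 16417219 assigned reads. The preparations held microglial RNA beside that of OPCs: all 22 microglia markers examined were detected in every library, none at 0, and took 3.28 to 3.33% of reads in wildtype and 2.38 to 2.47% in DISC1-Δ3 libraries. Summed marker RPKM (reads scaled to transcript length and library total) was 21035 to 21501 in wildtype and 14961 to 15535 in DISC1-Δ3 libraries, and 21 of the 22 markers were lower in DISC1-Δ3, P2ry13 being the exception. OPC identity markers were present, with summed RPKM of 571.3 to 591.31 in wildtype and 738.43 to 767.61 in DISC1-Δ3 libraries, and 8 of 10 were higher while Ptprz1 was lower, with its sign turned when libraries were scaled to microglial RNA. In bulk RNA, fewer cells of a type and less RNA per cell cannot be told apart. Disc1 itself had RPKM of 3.51, 3.34 and 3.81 in wildtype libraries against 2.86, 2.44 and 2.85 in DISC1-Δ3 libraries (log2 fold change −0.45, SE 0.088, edgeR adjusted p = 0.000528), a per-gene value in which exon 3 is not resolved. DISC1-Δ3 replicate 3 stood apart from the other libraries of its group. Its chi-square per degree of freedom over genes was 5.24 and 4.98 against them, beside 1.81 to 2.92 for the other pairs within a group. Without this library 4 chemokines were called higher and 5 lower, the same number in each direction as with it. Over all 13792 tested genes, 2918 were then called higher and 3314 lower, against 2807 and 2691 with it.

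Of the 10 chemokines, 5 were lower in DISC1-Δ3 than in wildtype libraries (Ccl3, Ccl4, Ccl6, Ccl9 and Ccl12), 4 were higher (Ccl2, Ccl7, Cxcl2 and Cxcl10) and Cxcl16 did not pass the test, with the lower calls of Ccl9 and Ccl12 turning to higher when libraries were scaled to microglial RNA. Calls are at an adjusted p under 0.05 in edgeR's quasi-likelihood test. Among all 13792 tested genes 19.5% were called lower and 20.4% higher, 39.9% in all, so a call by itself is common in this comparison. The median log2 fold change of the 10 genes was −0.08, beside 0.01 over all tested genes. DESeq2 called 3 of the 10 higher and 5 lower, beside 16.2% and 17.2% of all tested genes (33.4% in all), and edgeR scaled to library totals called 5 higher and 3 lower, beside 29.9% and 13.3% (43.2% in all). In RPKM the groups did not overlap for 8 of the 10, 4 in each direction, beside 52.0% of tested genes (35.9% higher and 16.1% lower). RPKM is scaled to library totals, whereas the fold changes use the trimmed mean of M-values (TMM), whose factors were 0.970 to 0.974 in wildtype and 1.02 to 1.04 in DISC1-Δ3 libraries, so a fold change and the ratio of the RPKM means differ.

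**Figure D1:**
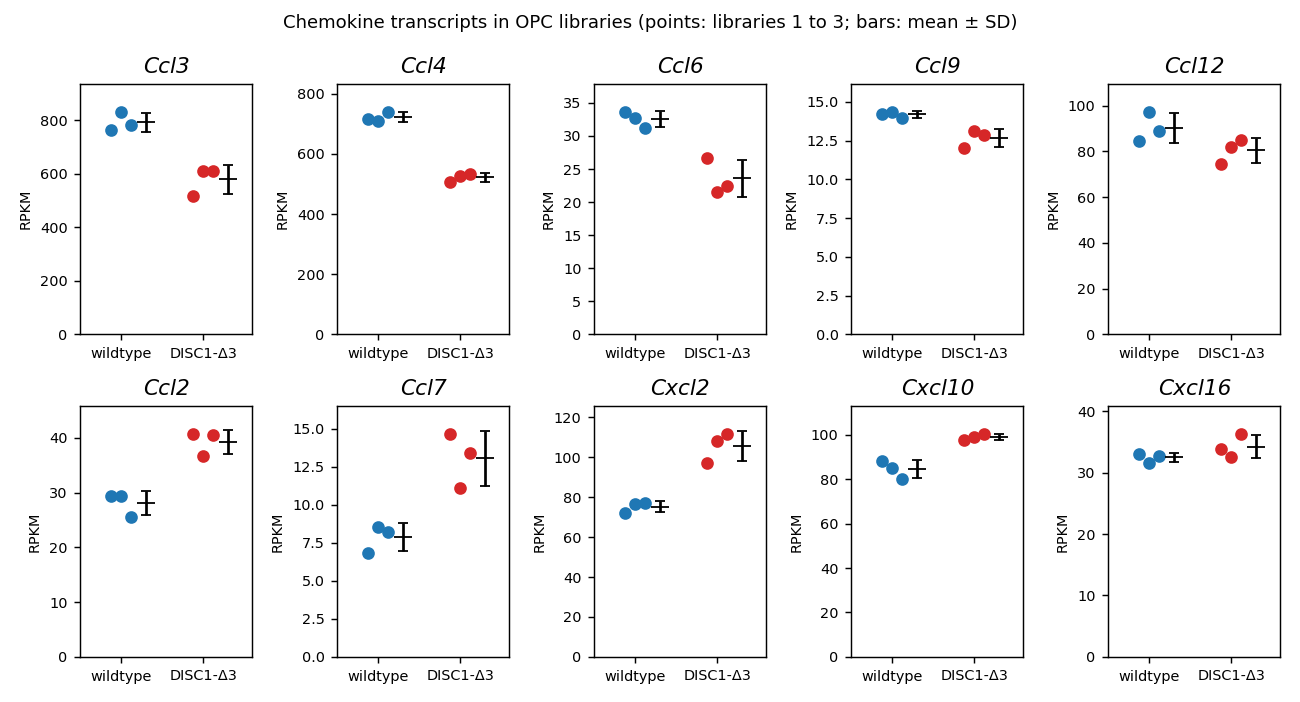
RPKM (y axes, each from 0) of the 10 chemokines in the 3 wildtype (blue) and 3 DISC1-Δ3 (red) libraries, replicates 1 to 3 from left to right, with the mean ± SD beside the points. Ccl3 and Ccl4, at 506.55 to 832.78, stand above the others in every library, and the groups overlap for Ccl12 and Cxcl16 only.

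The genes lie in separate clusters of the mouse genome (GRCm38). On chromosome 11, Ccl2 (82035571-82037453, plus strand), Ccl7 (82045712-82047525, plus) and Ccl12 (82101845-82103400, plus) form 1 group, with 8.26 kb between Ccl2 and Ccl7 and 54.3 kb between Ccl7 and Ccl12. Some 1470 kb further on are Ccl9 (83572919-83578636, minus), Ccl6 (83587882-83593087, minus), Ccl3 (83647844-83649355, minus) and Ccl4 (83662584-83664683, plus), with 9.25 kb between Ccl9 and Ccl6, 54.8 kb between Ccl6 and Ccl3 and 13.2 kb between Ccl3 and Ccl4. All 4 genes of the second group were lower in DISC1-Δ3 under TMM scaling, though Ccl9 was higher under microglial scaling. In the first group Ccl2 and Ccl7 were higher, while their neighbor Ccl12 was lower under TMM scaling and higher under microglial scaling. Cxcl16 (70453983-70459984, minus) lies elsewhere on chromosome 11. Cxcl2 (90903871-90905938, plus) and Cxcl10 (92346638-92348889, minus) are on chromosome 5.

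The 250 bases before the start site are given 5′ to 3′ for 4 members, from RefSeq on GRCm38.p6. Under TMM scaling Cxcl2 and Cxcl10 were called higher and Ccl3 and Ccl6 lower. Under microglial scaling Ccl3 and Ccl6 were not called. RefSeq promoter windows were found for 6 members, these 4 with Ccl9 and Ccl12, and for none of Ccl2, Ccl4, Ccl7 and Cxcl16. Whether promoters differ by direction of change was not tested. The windows are chr5:90903649-90903898 (plus strand) for Cxcl2, chr5:92348890-92349139 (minus) for Cxcl10, chr11:83649379-83649628 (minus) for Ccl3 and chr11:83593088-83593337 (minus) for Ccl6. Capitals mark matches on either strand to GGGANNTTCC, a narrow form of NF-κB sites, and to GAAANNGAAA, the core of interferon response elements. Wider forms of NF-κB sites were not searched and are not marked.
Cxcl2: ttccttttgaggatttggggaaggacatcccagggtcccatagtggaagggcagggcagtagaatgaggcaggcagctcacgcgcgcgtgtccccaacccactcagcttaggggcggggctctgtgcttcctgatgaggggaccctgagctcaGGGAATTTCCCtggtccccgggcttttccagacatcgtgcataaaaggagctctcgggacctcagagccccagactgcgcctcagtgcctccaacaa
Cxcl10: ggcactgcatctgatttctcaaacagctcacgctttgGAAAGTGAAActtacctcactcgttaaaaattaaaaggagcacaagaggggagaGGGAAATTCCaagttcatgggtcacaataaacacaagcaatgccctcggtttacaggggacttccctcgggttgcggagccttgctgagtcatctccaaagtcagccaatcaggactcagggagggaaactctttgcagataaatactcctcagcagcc
Ccl3: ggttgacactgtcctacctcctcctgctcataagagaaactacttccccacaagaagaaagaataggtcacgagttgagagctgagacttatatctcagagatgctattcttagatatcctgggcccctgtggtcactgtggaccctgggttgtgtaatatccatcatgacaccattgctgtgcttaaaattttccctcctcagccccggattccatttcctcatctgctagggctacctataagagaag
Ccl6: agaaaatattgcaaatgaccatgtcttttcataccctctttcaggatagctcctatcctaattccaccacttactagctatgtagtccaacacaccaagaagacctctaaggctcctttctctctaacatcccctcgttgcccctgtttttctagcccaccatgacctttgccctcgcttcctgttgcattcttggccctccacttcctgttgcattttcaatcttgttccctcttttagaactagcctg

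The Cxcl2 window held GGGAATTTCC from 97 to 88 bases before the start, and a match on the opposite strand that overlaps it by all but 1 base. In Cxcl10 the NF-κB-type match GGGAAATTCC lay 159 to 150 bases and the interferon-type match GAAAGTGAAA 213 to 204 bases before the start. The windows of Ccl3, Ccl6, Ccl9 and Ccl12 held neither of these forms, and wider NF-κB forms were not searched. Of 32851 RefSeq promoter windows of the same length, 1.21% held GGGANNTTCC and 2.98% held GAAANNGAAA. The AP-1-type motif TGANTCA (6.75% of windows) was found in Cxcl10 and Ccl9, TATAAA on the sense strand (7.59%) in Ccl12 and Ccl9, and TTGCNNAA, of the C/EBP type (9.56%), in none of the 6. These are matches of letters within the window only.

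Ccl3 and Ccl4, first described as macrophage inflammatory proteins, were by far the most abundant. Ccl3 (gene ID 20302) had RPKM of 762.74, 832.78 and 782.86 in wildtype replicates 1 to 3, against 517.60, 611.02 and 611.52 in the DISC1-Δ3 replicates, from 4788 to 8897 reads. Every DISC1-Δ3 library was below every wildtype library. The mean of 793 ± 36.1 (SD, n = 3) compared with 580.0 ± 54.1 (n = 3), and Ccl3 fell by 30.7% (log2 fold change −0.53, SE 0.057, 95% interval −0.65 to −0.41, edgeR adjusted p = 7.66e-07). Ccl4 (20303) had RPKM of 715.68, 708.42 and 741.05 in wildtype libraries against 506.55, 526.24 and 532.48 in DISC1-Δ3 libraries, and the groups were again apart. Its means were 721.7 ± 17.1 and 521.8 ± 13.5 (n = 3 each), a fall of 31.6% (log2 fold change −0.55, SE 0.042, 95% interval −0.64 to −0.46, edgeR adjusted p = 9.41e-09). In rank among the 18211 genes by RPKM, Ccl3 stood at 115 to 122 in wildtype and 145 to 170 in DISC1-Δ3 libraries, and Ccl4 at 126 to 132 and 159 to 175. Together they made up 80.3 to 81.0% of the summed RPKM of the 10 chemokines in wildtype and 72.0 to 73.8% in DISC1-Δ3 libraries, and that sum went from 1840.5 to 1917.2 in wildtype libraries to 1421.6 to 1566.8 in DISC1-Δ3 libraries. The RefSeq model of Ccl4, from 83648624 to 83664683, reaches over Ccl3, and both genes lie on opposite strands in reads counted from a protocol that does not mark strand. In the GENCODE models, however, both had 0 exonic bases and 0 windows of 50 bases shared with another gene. The deposited counts of both were whole numbers in every library.

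Ccl6 and Ccl9 are rodent CC chemokines that act through Ccr1. Ccl6 (20305) had RPKM of 33.70, 32.74 and 31.21 in wildtype libraries against 26.68, 21.55 and 22.50 in DISC1-Δ3 libraries. The groups did not overlap, and DISC1-Δ3 replicate 1 was the nearest to the wildtype range. From 32.6 ± 1.26 to 23.6 ± 2.73 (SD, n = 3 each), its fall was close in size to those of Ccl3 and Ccl4 (log2 fold change −0.55, SE 0.082, 95% interval −0.72 to −0.38, edgeR adjusted p = 3.54e-05). Ccl9 (20308) fell less. Its RPKM was 14.24, 14.37 and 13.96 in wildtype libraries against 12.01, 13.10 and 12.84 in DISC1-Δ3 libraries, with no overlap (means 14.2 ± 0.21 and 12.65 ± 0.569, n = 3 each; log2 fold change −0.25, SE 0.067, 95% interval −0.39 to −0.10, edgeR adjusted p = 0.00722). Scaled to library totals the fall of Ccl9 was −0.16 on the log2 scale and no longer passed (edgeR adjusted p = 0.0577). Within libraries the ratio of Ccl6 to Ccl9 went from 2.29 ± 0.067 to 1.87 ± 0.307, without overlap between the groups.

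Ccl2, Ccl7 and Ccl12 are monocyte chemoattractants, and Ccr2 is their main shared receptor. Ccl2 (20296) had RPKM of 29.39, 29.42 and 25.64 in wildtype libraries against 40.73, 36.78 and 40.45 in DISC1-Δ3 libraries. All DISC1-Δ3 libraries were above all wildtype libraries, by a fold of 1.32 (means 28.15 ± 2.17 and 39.3 ± 2.2, n = 3 each; log2 fold change 0.40, SE 0.087, 95% interval 0.22 to 0.59, edgeR adjusted p = 0.00128). Ccl7 (20306), the least abundant member, had RPKM of 6.84, 8.56 and 8.21 in wildtype libraries against 14.67, 11.10 and 13.40 in DISC1-Δ3 libraries. These values rest on 61 to 141 reads a library, which makes its interval the widest of the 10, yet the groups were apart and its rise was the largest at 1.56-fold (means 7.87 ± 0.909 and 13.1 ± 1.81, n = 3 each; log2 fold change 0.64, SE 0.15, 95% interval 0.32 to 0.96, edgeR adjusted p = 0.00282). Ccl12 (20293) had RPKM of 84.66, 97.47 and 89.07 in wildtype libraries against 74.51, 81.82 and 85.20 in DISC1-Δ3 libraries. Here DISC1-Δ3 replicate 3 lay above wildtype replicate 1, so the groups overlapped. The fitted fall of Ccl12 passed the threshold (means 90.4 ± 6.51 and 80.5 ± 5.46, n = 3 each; log2 fold change −0.25, SE 0.079, 95% interval −0.41 to −0.08, edgeR adjusted p = 0.0199), but not without wildtype replicate 2 (−0.17, adjusted p = 0.142) or DISC1-Δ3 replicate 1 (−0.22, adjusted p = 0.0564), nor when scaled to library totals (−0.16, adjusted p = 0.115). The ratio of Ccl2 to Ccl12 within libraries, which no scaling between libraries can move, was 0.312 ± 0.031 in wildtype and 0.490 ± 0.050 in DISC1-Δ3 (n = 3 each), a 1.57-fold difference without overlap. The ratio of Ccl7 to Ccl2 overlapped between the groups.

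Cxcl2, a neutrophil attractant that acts on Cxcr2, had RPKM of 71.90, 76.61 and 77.06 in wildtype libraries against 97.32, 108.02 and 111.68 in DISC1-Δ3 libraries (gene ID 20310). The groups were well apart, from 75.2 ± 2.86 to 105.7 ± 7.46 (SD, n = 3 each), a fold of 1.33 (log2 fold change 0.41, SE 0.058, 95% interval 0.29 to 0.53, edgeR adjusted p = 2.05e-05). Cxcl2 and its neighbor and close relative Cxcl3 share 5.84% of the 50-base windows of Cxcl2. Cxcl10 (15945), an interferon-induced ligand of Cxcr3 on T cells, had RPKM of 88.26, 85.25 and 80.28 in wildtype libraries against 97.76, 99.02 and 100.45 in DISC1-Δ3 libraries. Although the groups did not overlap (means 84.6 ± 4.03 and 99.1 ± 1.35, n = 3 each), the rise on TMM scaling was 10.9% (log2 fold change 0.15, SE 0.052, 95% interval 0.04 to 0.26, edgeR adjusted p = 0.0295). It did not pass in DESeq2 (0.14, adjusted p = 0.0748), nor in edgeR without DISC1-Δ3 replicate 1 or 2 (adjusted p = 0.0916 and 0.131) or without wildtype replicate 2 or 3 (adjusted p = 0.0676 and 0.153). Cxcl10 shares 5.91% of its exonic bases with Art3.

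Cxcl16 is made as a membrane protein and shed by the proteases Adam10 and Adam17, and its receptor is Cxcr6. Cxcl16 (66102) had RPKM of 33.08, 31.61 and 32.74 in wildtype libraries against 33.79, 32.60 and 36.31 in DISC1-Δ3 libraries. The groups overlapped, and the difference was not detected (means 32.5 ± 0.77 and 34.2 ± 1.89, n = 3 each; log2 fold change 0.08, SE 0.060, 95% interval −0.05 to 0.20, edgeR adjusted p = 0.333). Both sheddases were lower under TMM scaling and higher under microglial scaling, Adam10 at −0.18 (edgeR adjusted p = 0.0284) against 0.35, and Adam17 at −0.36 (adjusted p = 4.21e-05) against 0.16. Adam10 was not called when scaled to library totals (−0.093, adjusted p = 0.257), nor Adam17 when scaled to the microglia markers without C1qa, C1qb, C1qc and Csf1r (0.077, adjusted p = 0.242). Cxcl16 shares 18.3% of its exonic bases with Zmynd15 on the other strand, and its deposited counts were fractional in all 6 libraries.

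Microglial RNA was lower in DISC1-Δ3 libraries, so each chemokine was also measured against it, with the summed reads of the 22 markers as the library size. The log2 fold changes of the markers ran from −0.69 to −0.06 with a median of −0.49, and that range held the 5 lower chemokines, while the other 5 lay above it. Per 1000 marker reads, Ccl3 had 14.8, 16.4 and 15.1 reads in wildtype and 13.7, 16.0 and 16.5 in DISC1-Δ3 libraries (log2 fold change −0.0055, 95% interval −0.14 to 0.13, edgeR adjusted p = 0.935). Ccl4 had 11.2, 11.3 and 11.6 against 10.8, 11.1 and 11.6 (−0.024, 95% interval −0.11 to 0.06, adjusted p = 0.564). Ccl6 had 1.32, 1.28 and 1.21 against 1.40, 1.13 and 1.22 (−0.025, 95% interval −0.21 to 0.16, adjusted p = 0.794). For these 3 genes the groups overlapped, and they are the ones that fell most under TMM scaling.

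The other 7 did not overlap and were called higher per microglial marker read. Ccl2 went from 0.586, 0.593 and 0.508 to 1.10, 0.988 and 1.12 reads per 1000 marker reads (log2 fold change 0.93, edgeR adjusted p = 9.62e-07). Cxcl2 went from 2.04, 2.19 and 2.17 to 3.73, 4.11 and 4.39 (0.94, adjusted p = 3.21e-08). Ccl7 showed the largest difference, from 0.135, 0.171 and 0.161 to 0.394, 0.296 and 0.368 (1.17, adjusted p = 1.30e-05). Cxcl10 (0.67, adjusted p = 1.39e-07) and Cxcl16 (0.60, adjusted p = 2.07e-06) followed, and Ccl9 and Ccl12 were least raised, both at 0.28 (adjusted p = 0.00235 and 0.00825). This scaling raises the median of all tested genes to 0.53 and calls 79.8% of them higher and 2.07% lower, 81.8% in all, so 7 of 10 higher is near the background. Against that median, Ccl7, Ccl2, Cxcl2, Cxcl10 and Cxcl16 lay above it, and Ccl3, Ccl4, Ccl6, Ccl9 and Ccl12 below it. C1qa, C1qb, C1qc and Csf1r gave 45.8% of the marker reads. With the 18 other markers, Ccl3 was at −0.09 (adjusted p = 0.161), Ccl6 at −0.11 (adjusted p = 0.263), and Ccl4, at −0.11, was lower (adjusted p = 0.0164), while the same 7 were called higher, beside 74.1% higher and 3.10% lower (77.2% in all) over all tested genes. Scaled by the median of the marker ratios, 7 of the 10 were higher and 0 lower, beside 78.8% and 2.41% (81.2% in all).

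**Figure D2:**
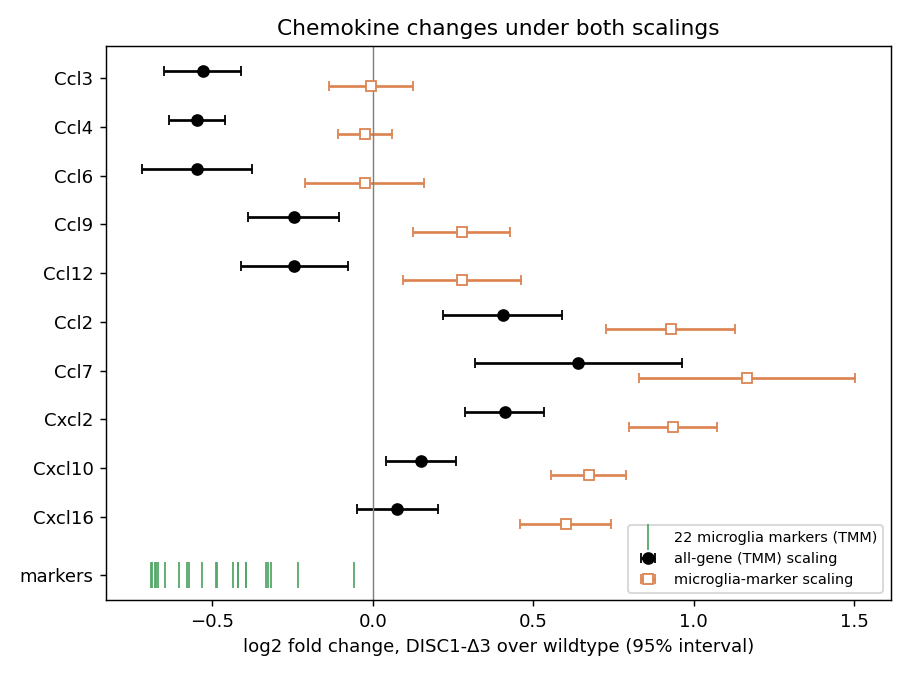
Log2 fold change of each chemokine, DISC1-Δ3 over wildtype, with its 95% interval (x axis), under TMM scaling (black circles) and scaling to microglia-marker reads (orange squares), with the 22 marker fold changes as green ticks. Ccl3, Ccl4 and Ccl6 move from about −0.5 to near 0, Ccl9 and Ccl12 change sign, and Ccl2, Ccl7 and Cxcl2 are above 0 under both.

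Ratios between members within a library need no scaling, and 10 were computed. Ratios to Ccl3 were taken for 7 members, and those of Ccl6 and Cxcl16 to Ccl3 were not computed. Relative to Ccl3, Ccl4 was at 0.938, 0.851 and 0.947 in wildtype libraries against 0.979, 0.861 and 0.871 in DISC1-Δ3 libraries, so this pair kept overlapping ratios. Cxcl2 relative to Ccl3 was at 0.0943, 0.0920 and 0.0984 in wildtype libraries against 0.188, 0.177 and 0.183 in DISC1-Δ3 libraries, a 1.92-fold difference. The same comparison gave 1.92-fold for Ccl2, 2.30-fold for Ccl7, 1.61-fold for Cxcl10, and 1.22-fold for both Ccl9 and Ccl12, none with overlapping groups. All of these share Ccl3, which was itself lower, as their denominator and are not independent of one another. Over all other tested genes the median difference relative to Ccl3 was 1.46-fold, and 77.0% were higher and 1.74% lower without overlap (78.8% in all), so 6 of 7 higher is near the background. Ccl7, Ccl2, Cxcl2 and Cxcl10 lay above that median difference, and Ccl9 and Ccl12 below it. Whichever way the libraries are scaled, these ratios stay as they are.

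**Figure D3:**
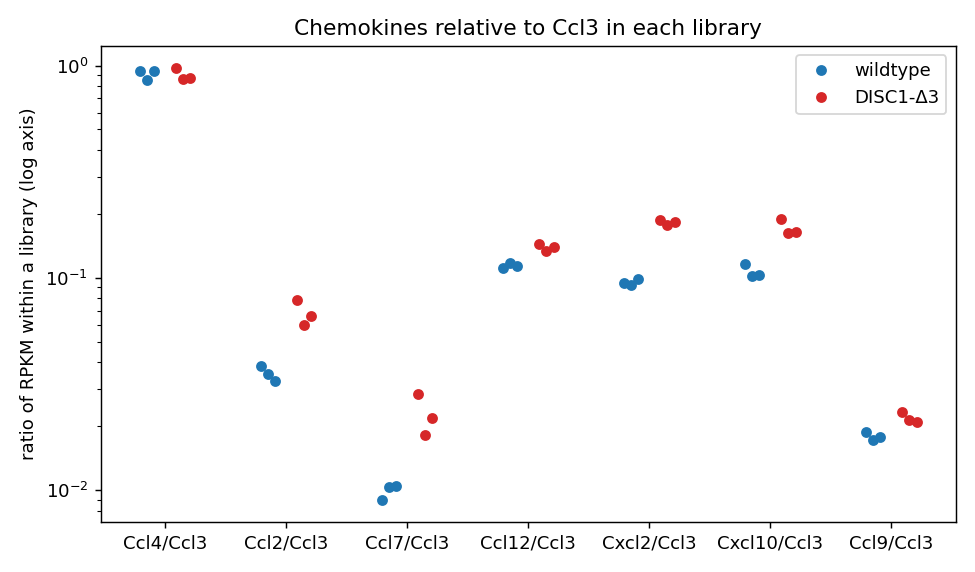
RPKM of 7 chemokines divided by that of Ccl3 in the same library (y axis, log scale) for wildtype (blue) and DISC1-Δ3 (red), without Ccl6 and Cxcl16. Ccl4 overlaps between the groups, and the other 6 are higher in every DISC1-Δ3 library, from 1.22-fold for Ccl9 and Ccl12 to 2.30-fold for Ccl7, beside a median of 1.46-fold over all other tested genes.

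Of the 30 other chemokines listed, 26 were in the table and 15 were tested, of which 6 were higher and 2 lower, with a median log2 fold change of 0.14. Over all tested genes 20.4% were called higher and 19.5% lower. Cxcl1 and Cxcl3, which share the receptor Cxcr2 with Cxcl2, were both higher, Cxcl1 from 10.8 ± 3.09 to 18.7 ± 1.37 RPKM (log2 fold change 0.71, edgeR adjusted p = 0.00107) and Cxcl3 from 8.40 ± 2.01 to 13.8 ± 1.69 (0.64, adjusted p = 0.00301). Ccl5, an attractant of T cells and monocytes, was higher, from 5.36, 8.06 and 7.59 RPKM to 13.44, 17.33 and 15.99 (1.06, adjusted p = 0.000222). Ccl22, a Ccr4 ligand made by dendritic cells and macrophages, had the largest rise, from 1.58 ± 0.149 to 5.98 ± 1.04 RPKM (1.84, adjusted p = 1.23e-07). Cx3cl1, the neuronal ligand of the microglial receptor Cx3cr1, was at 9.52 ± 0.671 and 18.4 ± 1.42 (0.88, adjusted p = 7.89e-08), and Cxcl12, made by vascular and meningeal cells, at 9.59 ± 0.41 and 12.7 ± 0.544 (0.55, adjusted p = 4.91e-06). The RPKM means of Cxcl12 differed by 1.32-fold and its fitted reads by 1.47-fold, and the cause was not tested. These 6 were higher under every scaling tried, though microglial scaling calls 79.8% of all tested genes higher and so adds little. Cxcl14 was lower at −0.20 (adjusted p = 0.0137) with overlapping groups and turned to 0.32 under microglial scaling, and it was not called when scaled to library totals (−0.12, adjusted p = 0.112). Ccl21a was lower at −2.16 (adjusted p = 0.0342) on RPKM of 2.00, 4.36 and 0.00 against 0.49, 0.72 and 0.35, which overlap, it was not called under microglial scaling (−1.64, adjusted p = 0.0987), and it has near-identical copies. Pf4, Ccl24, Ccl27a, Ccl25, Ccl8, Ccl21b and Ppbp did not pass under TMM scaling. Of them, Pf4, Ccl24, Ccl27a and Ccl25 were called higher under microglial scaling.

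Of 23 listed receptors, 22 were in the table and 11 were tested, of which 2 were higher and 3 lower under TMM scaling. All 3 lower calls turned to positive values under microglial scaling, though Cx3cr1 is itself part of the marker sum. With the markers other than C1qa, C1qb, C1qc and Csf1r, none of the 3 was called (Ccr1 0.14, Cx3cr1 0.045 and Ccrl2 0.035, edgeR adjusted p = 0.154, 0.274 and 0.397). Ccr1, which binds Ccl3, Ccl6, Ccl7 and Ccl9, was at 10.9 ± 0.761 RPKM in wildtype and 9.35 ± 0.881 in DISC1-Δ3 (log2 fold change −0.30, edgeR adjusted p = 0.0111), and was not called when scaled to library totals (−0.21, adjusted p = 0.0604). Ccr2, the receptor of Ccl2, Ccl7 and Ccl12, was near the limit of detection and not tested, with RPKM of 0.30, 0.24 and 0.28 in wildtype libraries against 0.08, 0.14 and 0.16 in DISC1-Δ3 libraries. The receptors of the CXC members were also low: Cxcr2 was at 1.16 and 0.847 RPKM (adjusted p = 0.168), Cxcr3 at 1.26 and 1.44 (adjusted p = 0.75), and Cxcr6, not tested, at no more than 0.28 in any library. Ccrl2, an atypical receptor that presents chemerin, was at 187 and 150.2 RPKM (−0.40, adjusted p = 7.07e-07), and Cx3cr1, one of the 22 microglia markers, at 475 and 384 (−0.39, adjusted p = 8.71e-07). Neither receptor that was higher is known to bind any of the 10 ligands: Ccr7 of migrating dendritic cells and lymphocytes, from 6.34 ± 0.39 to 19.3 ± 0.547 RPKM (1.53, adjusted p = 1.77e-10), and Ackr3, the scavenger of Cxcl12, from 6.25 ± 0.595 to 15.6 ± 1.10 (1.23, adjusted p = 1.27e-08). Cxcr4, Cxcr5, Ccr6 and Ackr1 did not pass under TMM scaling. Scaled to library totals, Cxcr4 was called higher (0.16, edgeR adjusted p = 0.0498). Under microglial scaling Cxcr4, Cxcr5 and Ackr1 were called higher, as were 79.8% of all tested genes. Ackr2 and Ccr3 were too low to be tested. Ackr2 had RPKM of 0.25, 0.16 and 0.17 in wildtype libraries against 0.37, 0.52 and 0.38 in DISC1-Δ3 libraries. Ccr3 had no more than 0.07 in any library.

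**Figure D4:**
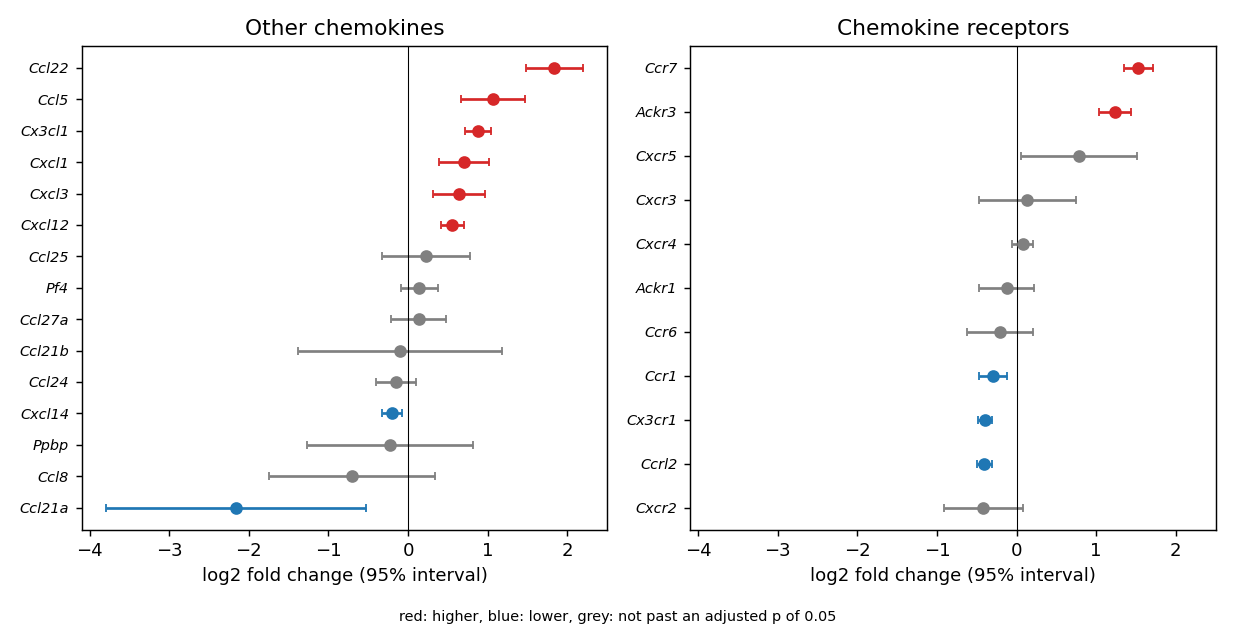
Log2 fold change under TMM scaling, DISC1-Δ3 over wildtype, with its 95% interval (x axes) for the 15 other chemokines and the 11 receptors tested, in red where higher, blue where lower and grey where not past an adjusted p of 0.05. Ccl22 (1.84) and Ccr7 (1.53) lead the higher genes, while the blue genes other than Ccl21a become positive under microglial scaling.

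Regulators and cell-type markers were counted beside the chemokines, and their part in the results was not tested. Of 24 cytokine and NF-κB genes, 2 were higher and 12 lower (median log2 fold change −0.13), the most abundant being Nfkbia (−0.33), Cd83 (−0.40), Ier3 (−0.79) and Tnf (−0.08, edgeR adjusted p = 0.16), and under microglial scaling 18 were higher and 4 lower, with Nfkbia and Cd83 among 7 that changed sign. Of 16 interferon-response genes, 0 were higher and 9 lower (median −0.34), among them Irf1 (−0.91), Irf7 (−0.61) and Irf9 (−0.47), while Isg15 at 0.17 was not called, and under microglial scaling 5 were higher and 1 lower, Irf9 having turned positive. Of 13 early genes that dissociation induces, 10 were lower and 1, Fosb at 0.62, was higher, against 3 lower and 6 higher under microglial scaling. Their summed RPKM was 9303.2 to 9528 in wildtype and 7103.5 to 7241.8 in DISC1-Δ3 libraries, lower in the same libraries as Ccl3, Ccl4 and Ccl6. Zfp36 (−0.74), Hspa1b (−0.54), Junb (−0.57) and Jun (−0.34, positive under microglial scaling) were the most abundant of them.

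Among other cell types that could hold chemokine transcripts, pericyte markers rose (7 of 8 higher, 0 lower, under every scaling tried at least 7), with summed RPKM of 164.42 to 174.9 in wildtype and 229.87 to 237.35 in DISC1-Δ3 libraries. Microglial scaling, however, calls 79.8% of all tested genes higher. Endothelial markers were at 146.96 to 156.55 and 196.05 to 196.46, with 4 of 8 higher and 0 lower. Both sums moved in the direction of Ccl2, Ccl7 and Cxcl2. So did those of OPC markers and of neuron markers (345.1 to 347.66 in wildtype and 412.04 to 435.05 in DISC1-Δ3 libraries). In RPKM, 35.9% of all tested genes were higher without overlap, and a link with the chemokines was not tested. Border macrophage markers, with Stab1, Cbr2, Pf4 and Mrc1 the most abundant, were at 209.85 to 219.61 and 178.79 to 186.9, with 0 of 9 higher and 4 lower under TMM scaling and 8 higher and 0 lower under microglial scaling. Of 9 tested monocyte and neutrophil markers 1 was higher and 6 lower, S100a9 at −0.43, Plac8 at −1.08 and S100a8 at −0.63 among the latter. Ngp, at −0.01, was not called. Under microglial scaling 2 of these markers were higher and 2 lower, and S100a9 turned positive. Among the remaining lists, 7 of 8 neuron markers were higher and 0 lower, 0 of 8 oligodendrocyte markers higher and 5 lower, and 1 of 8 astrocyte markers higher and 6 lower. Under microglial scaling 8 neuron, 3 oligodendrocyte and 7 astrocyte markers were higher and 0 were lower in each. In which cells of the preparation the chemokine transcripts were made was not measured.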

How the data were processed

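RNA-seq of 50-base single-end reads (BGISEQ-500) was analyzed for 3 wildtype and 3 DISC1-Δ3 libraries. The submitters' processing notes name Bowtie2 2.2.5 and mm10. The counter and annotation are not given in the sources used here, and the paper's methods name DESeq2. For each of 18211 genes the authors deposited expected counts, which split the reads that match more than 1 gene, and RPKM values to 2 decimals. Of the expected counts above 0, 90.2% were whole within 0.005. The 4 deposited columns of group values were not used.

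Expected counts were rounded and fitted with edgeR 4.0.16 (R 4.3.3; TMM, quasi-likelihood, genotype as the only term) for the 13792 genes whose RPKM reached 0.5 in 3 or more of the 6 libraries. Two-sided p-values were adjusted by Benjamini-Hochberg over these 13792 genes and called under 0.05. DESeq2 1.42.0 and limma 3.58.1 on log2(RPKM + 1) or log2(RPKM + 0.1) served as alternatives, with other filters and scalings, a replicate block and each library left out. Microglial scaling used the summed reads of 22 markers as the library size, and its 2 variants, without 4 markers or by the median of ratios, were chosen after seeing the data. Gene positions are from GENCODE M21.

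The chemokines, gene lists and tests were chosen with earlier results of these data known. Every tested gene of the lists of other chemokines, receptors and sheddases, the receptors of the members, Disc1, and the 4 most abundant genes of each further list were to be named. One item under this rule is left out here. Of the genes to be named, some cell-type markers were given by counts only, and whether they bear on the chemokines was not tested. Others, such as Fosb, were named after their values were seen.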

Additional observations from a re-analysis of the deposited data

How the results depend on the processing

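Ccl2, Ccl7 and Cxcl2 kept their direction and their call under every alternative, and leaving out 1 library at a time gave 0.34 to 0.45, 0.53 to 0.72 and 0.37 to 0.44 on the log2 scale. Scaling to microglia markers, whether by all 22, by the median of ratios or without C1qa, C1qb, C1qc and Csf1r, raised the count of higher members from 4 to 7 each time and lowered that of lower members from 5 to 0, 0 and 1. In that order, Ccl3 was at −0.0055, −0.030 and −0.090, none called; Ccl4 at −0.024, −0.049 and −0.11, of which the last was called; Ccl6 at −0.025, −0.049 and −0.11, none called. Ccl9 turned to 0.28, 0.25 and 0.19 and Ccl12 to 0.28, 0.25 and 0.20, while Cxcl16 came to be called at 0.60, 0.58 and 0.52. The median over all genes under these scalings was 0.53, 0.51 and 0.45, and of all calls 97.5% were higher under the first, against 51.1% under TMM. Scaling by RPKM sums or library totals moved that median to 0.09 and left 3 lower members: Ccl9 (−0.16 and −0.16) and Ccl12 (−0.16 and −0.16) were no longer called and Cxcl16 (0.16 and 0.16) was. Calls were then 70.0% and 69.1% higher, and 69.2% higher under limma, where Ccl9 was not called either (−0.17 with a pseudocount of 0.1, −0.15 with 1). Cxcl10 was not called by DESeq2 (0.14) or with edgeR's filterByExpr (0.13). Leaving out 1 library gave 0.11 to 0.17 for Cxcl10 and −0.30 to −0.17 for Ccl12, with 3 to 4 members higher and 4 to 5 lower. With the replicate number as a block, 4 members were higher and 5 lower, and no member's call changed. Deviations of libraries with the same number correlated at 0.058, 0.022 and −0.049, so they share only a number. Calls over all genes ran from 4342 without wildtype replicate 2 to 11286 under microglial scaling. Reads without molecular identifiers limit Ccl7 most, at 61 to 141 reads a library.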

Other observations

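Across the 6 libraries, log2 CPM (library-scaled counts) of Ccl3 had its highest positive correlations with those of Ccl9 (Pearson r = 0.988) and Ccl4 (r = 0.962). Those of Ccl2 were with Cxcl10 (r = 0.944) and Ccl7 (r = 0.887). Ccl2 ran opposite to Ccl4 more closely still (r = −0.96), and Ccl6 ran opposite to Cxcl2 (r = −0.987). Once the group means were removed, Ccl3 and Cxcl2, which differ between the genotypes in opposite directions, varied together between libraries (r = 0.909, against −0.822 with the group difference), while Ccl6 and Cxcl2 still ran opposite (r = −0.889). The positive pairs above then fell, Ccl3 with Ccl9 to 0.874 and with Ccl4 to 0.550, and Ccl2 with Cxcl10 to 0.686 and with Ccl7 to 0.306. Ccl3 with Ccl6 turned from 0.803 to −0.822, so the 6-library values largely reflect the group difference. The 6 points are the same libraries, in 2 groups of 3, and both genes of a pair share the depth of each, so these values describe the pattern and were given no test. The mean of the 10 centered profiles was nearly flat, from −0.04 to 0.07 on the log2 scale, since higher and lower members cancel. The tested genes outside the set whose profiles were most like that mean were Ppp6c (r = 0.979), Cyp1b1 (r = 0.973), Clec12a (r = 0.971), Cnot4 (r = 0.971) and Vav3 (r = 0.970). They were picked for the highest r over 6 libraries, so high values are built into the choice, and no link with the chemokines was tested.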
